A study of Homo sapiens with 6 samples.

Results

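Transcripts of 39 genes of central carbon metabolism were followed in OE33 cells, a line derived from a human adenocarcinoma of the oesophagus, after exposure to APX2009. The genes were taken by symbol from a fixed list and matched through GENCODE 29, and each of the 39 symbols found 1 row among the 58051 gene rows of the count table. They comprise 16 genes of glycolysis, 11 genes that carry pyruvate and lactate onward (called pyruvate handling here) and 12 genes of the tricarboxylic acid (TCA) cycle. APX2009 is a small molecule that inhibits the redox function of APE1, a nuclear protein that also acts in DNA base excision repair. The APX2009 group held 3 libraries from cells kept in 15 µM of the compound for 24 h. The untreated group held 3 libraries from cells without it, and no vehicle is named for them. All cultures were of the same line, which descends from 1 tumour, in RPMI1640 medium with serum, and the design text calls the replicates independent biological ones.

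Glycolysis splits glucose into pyruvate in the cytosol and yields ATP and NADH. Pyruvate is then either reduced to lactate, which leaves the cell through monocarboxylate transporters, or taken into mitochondria, where the pyruvate dehydrogenase complex turns it into acetyl-CoA for the TCA cycle. Tumour cells often keep high glycolysis and lactate output in the presence of oxygen, with isoenzymes such as HK2 and LDHA, whose genes are known targets of the hypoxia-inducible factors and of MYC.

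The libraries held 21158750 to 26111656 gene counts in APX2009 cells and 22443569 to 25093753 in untreated cells. All 39 genes passed the filter on low counts, with 356 to 78511 counts per gene and library. Levels are CPM, the counts of a gene scaled to a common library size with TMM factors. Changes were tested with the quasi-likelihood test of edgeR and adjusted by the Benjamini-Hochberg method over all 14773 genes tested. A gene is said to have risen or fallen at an adjusted p under 0.05, and values after ± are SD over 3 libraries or, for log2 changes, standard errors (SE). In RNA from whole cultures, a lower level per cell and fewer cells that express a gene cannot be told apart.

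APX2009 replicate 1 stood apart from the other libraries. ERCC spike-in RNA made up 0.315% of its counts, against 0.734% to 0.752% in the other APX2009 libraries and 0.48% to 0.564% in untreated libraries. Pseudogenes took 0.642% of its gene counts, against 0.343% to 0.385% in the other 5 libraries, and mitochondrial genes 4.12%, against 0.943% to 2.62%. It also held 48 counts of COL3A1 and 42 counts of DCN, fibroblast genes with 0 counts in every other library. The summed level of 6 fibroblast markers ran from 9.11 to 19.2 CPM in APX2009 libraries and from 8.35 to 12.7 CPM in untreated libraries. That of 6 leukocyte markers ran from 6.75 to 7.9 and from 6.08 to 6.79 CPM, and that of 5 endothelial markers from 0.0889 to 2.1 and from 0.0445 to 0.402 CPM. Of the leukocyte markers CD3E was at 0 in all libraries, and CD14 and LYZ did not pass. CD68 rose at a low level, with 2.68 to 3.89 CPM in APX2009 libraries and 0.979 to 1.85 CPM in untreated libraries (log2 change 1.19, edgeR adjusted p = 0.00513). The 6 epithelial markers summed to 14172 to 17739 CPM in APX2009 libraries and 25605 to 26328 CPM in untreated libraries. The cells thus carried epithelial transcripts as labelled. KRT19 made up most of this sum, with 9718 to 12373 CPM in APX2009 libraries and 18194 to 18955 CPM in untreated libraries. KRT8, KRT18, KRT19 and CDH1 were lower after treatment, while EPCAM and CLDN4 did not pass (log2 changes -0.002 and -0.07). The part of these markers in the results below was not tested. Counts are given with and without replicate 1.

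Of the 39 genes, 15 changed, which is 38.5% of them, against 34.7% of all 14773 genes tested. Those that rose numbered 6 (background 17.2%) and those that fell 9 (background 17.4%). The share that changed was therefore near that of genes at large, and the genes are of interest by which enzyme moved rather than by how many. SLC16A3, PFKL, PKM and HK2 fell, and ENO2 rose, each by more than 0.5 on the log2 scale. In glycolysis 4 of 16 genes rose and 3 fell, in pyruvate handling 1 of 11 rose and 3 fell, and in the TCA cycle 1 of 12 rose and 3 fell. The median log2 change was -0.02, -0.09 and -0.13 in these 3 classes and 0.02 over all tested genes. None of the 39 genes reached a 2-fold change.

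Without APX2009 replicate 1, 10 genes rose and 11 fell, against 18.9% and 19.1% of all genes (38.1% in either direction). The 15 genes called with all libraries were all called again in the same direction, as were 4746 of the 5119 called over all genes. GPI, ALDOA, PC and IDH3B (log2 change 0.17, edgeR adjusted p = 0.0470) joined the rises and PGAM1 and SUCLG1 the falls. Leaving out any of the other 5 libraries instead ended 4 to 6 of the 15 calls. The genes that rose then numbered 2 without APX2009 replicate 2, 3 without APX2009 replicate 3, 2 without untreated replicate 1, 2 without untreated replicate 2 and 1 without untreated replicate 3. Calls over all genes also varied when 1 library was left out, APX2009 replicate 1 included. They ran from 1708 to 2839 higher and 1795 to 2870 lower of 14987 to 15142 tested. With all libraries they were 2543 and 2576 of 14773. Values in the 3 treated and 3 untreated libraries did not overlap for 21 genes, against 49.4% of all genes, and 14 of them were lower in APX2009 cells, against 25% of all genes. These directions are relative to the bulk of transcripts. When libraries were scaled to the ERCC spike-ins, 0 of the 39 genes passed with all 6 libraries (0 also at an unadjusted p under 0.05, edgeR), where 0.921% of all genes did (0.873% higher and 0.0474% lower). The log2 changes of the 15 called genes kept their sign there, at 0.24 to 0.67 for the 6 higher genes and -0.78 to -0.25 for the 9 lower ones, and none moved by more than 0.0919. With that scaling and without replicate 1, the median of all genes moved to -0.48, 31 genes fell and 0 rose (edgeR; background 61.6% lower, 3.06% higher and 64.6% in either direction). Relative to that median the 6 genes that rose under TMM lay 0.19 to 0.56 above it and the 9 that fell 0.24 to 0.72 below it. The basis on which the spike-ins were added is not given in the sources used here.

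**Figure D1:**
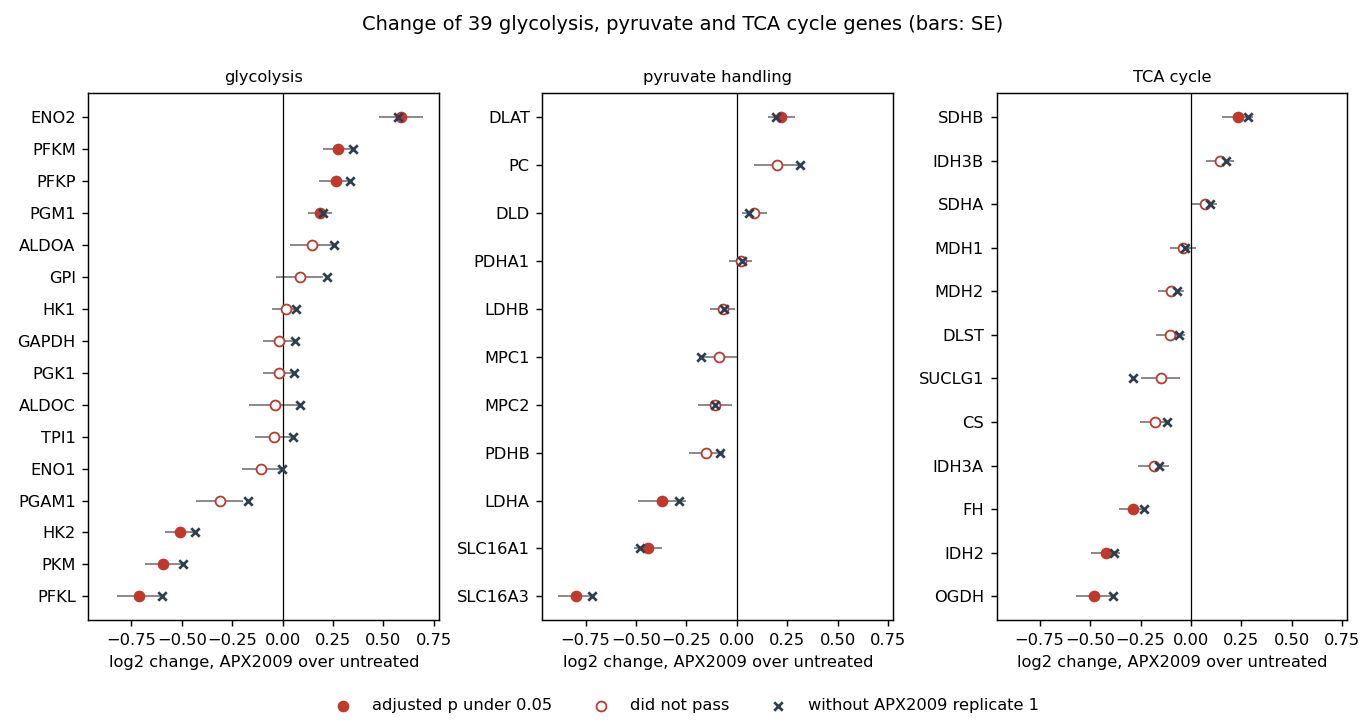
Log2 change of each of the 39 genes, APX2009 over untreated, in 3 panels by class; bars are SE, filled points passed at an adjusted p under 0.05 and crosses give the fit without APX2009 replicate 1. SLC16A3 (-0.80), PFKL (-0.71) and PKM (-0.59) lie lowest and ENO2 (0.59) highest. GAPDH, PGK1, TPI1 and ALDOC turn from just below to just above zero without replicate 1. Points and crosses are both from TMM scaling. In the fit with ERCC scaling and without replicate 1, which is not plotted, all genes but ENO2 had a log2 change below zero.

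The sequences in front of genes that moved in opposite directions are shown because the called genes HK2, LDHA and ENO2 are textbook targets of the hypoxia-inducible factors. A window of PFKP, which rose, is printed as well. The binding core of these factors is ACGTG or GCGTG. Only ACGTG was searched, so GCGTG is neither counted nor marked below, though the printed windows of HK2 and LDHA hold it on either strand. RefSeq windows (GRCh38.p14) of 300 bases, from 250 before to 50 after an annotated start, were available for 37 of the 39 genes, all but OGDH and SLC16A1, with several starts for some. ACGTG was searched on both strands, so CACGT on the printed strand counts too, and CACGTG, which holds it on both, counts as 1 site. It was present in a window of 16 of the 37 genes (43.2%), against 24.9% of all 27305 genes with windows. By window it was 20 of 69 (29%), against 21.4% of all windows. A window with ACGTG was found for 5 of the 6 genes that rose, 3 of the 7 with a window that fell and 8 of the 24 that did not pass. These counts depend on the number of windows per gene. Of genes that rose, PFKM had ACGTG in 2 of 7 windows, PFKP in 1 of 4 and PGM1 in 1 of 3. DLAT and ENO2 had it in their 1 window and SDHB did not. Of genes that fell, HK2 had it in 2 of 2 windows, LDHA in 1 of 2 and SLC16A3 in 1 of 5. PFKL, PKM, IDH2 and FH had 1 window each, without it. The difference between these groups was not tested. The core of the antioxidant response element, TGACNNNGC, was in a window of 7 of the 37 genes (18.9%; 16.1% of all genes), among them PKM and PFKL, which fell, and none of the 6 that rose. Below, capitals mark ACGTG or its reverse complement, 5′ to 3′ on the strand of the gene, which is the plus strand in each case. Where a gene has several windows, the one with most sites is printed. The LDHA window is chr11:18394313-18394612, that of HK2 chr2:74834920-74835219, that of ENO2 chr12:6914330-6914629 and that of PFKP chr10:3068939-3069238.
LDHA: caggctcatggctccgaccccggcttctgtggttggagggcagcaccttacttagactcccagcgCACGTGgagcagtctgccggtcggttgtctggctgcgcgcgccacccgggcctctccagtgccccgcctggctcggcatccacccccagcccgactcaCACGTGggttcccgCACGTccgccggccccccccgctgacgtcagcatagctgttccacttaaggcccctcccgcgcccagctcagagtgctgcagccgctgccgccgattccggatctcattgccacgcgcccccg
HK2: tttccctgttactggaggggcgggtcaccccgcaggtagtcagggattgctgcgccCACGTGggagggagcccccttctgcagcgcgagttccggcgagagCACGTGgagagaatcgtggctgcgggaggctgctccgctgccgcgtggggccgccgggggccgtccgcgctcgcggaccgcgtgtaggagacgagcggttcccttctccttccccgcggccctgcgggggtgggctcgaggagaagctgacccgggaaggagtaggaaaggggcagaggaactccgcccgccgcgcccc
ENO2: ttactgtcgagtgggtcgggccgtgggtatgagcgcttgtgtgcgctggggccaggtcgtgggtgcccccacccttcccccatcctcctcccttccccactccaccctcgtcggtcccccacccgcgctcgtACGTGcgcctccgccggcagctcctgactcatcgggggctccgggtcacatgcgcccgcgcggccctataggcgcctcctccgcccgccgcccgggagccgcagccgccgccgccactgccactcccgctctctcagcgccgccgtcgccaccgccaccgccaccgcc
PFKP: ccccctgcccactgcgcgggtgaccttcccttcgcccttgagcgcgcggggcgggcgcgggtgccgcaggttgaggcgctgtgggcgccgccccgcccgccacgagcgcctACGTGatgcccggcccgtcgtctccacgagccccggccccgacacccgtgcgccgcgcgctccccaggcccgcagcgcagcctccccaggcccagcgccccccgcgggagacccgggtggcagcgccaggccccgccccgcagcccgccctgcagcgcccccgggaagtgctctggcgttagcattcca
LDHA and HK2, which fell, held 3 and 2 ACGTG sites, and ENO2 and PFKP, which rose, held 1 each. These windows were picked and do not stand for all called genes. PFKL, PKM, IDH2 and FH, which fell, and SDHB, which rose, had no site in their window. A match of letters is not a measured binding site.

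In glycolysis PFKL, PKM and HK2 fell, while the other phosphofructokinase subunits PFKP and PFKM rose. PFKL (ENSG00000141959, chromosome 21, 44300051 to 44327376), the liver-type subunit of the enzyme that commits sugar to glycolysis, had 91.0, 129 and 109 CPM in APX2009 libraries and 185, 178 and 177 CPM in untreated libraries. Each treated value lay below each untreated value, with a log2 change of -0.71 ± 0.11 (1.64-fold lower, edgeR adjusted p = 0.000671). PKM (ENSG00000067225, chromosome 15, 72199029 to 72231822), pyruvate kinase of the last ATP-yielding step, had 891, 1115 and 1104 CPM against 1574, 1562 and 1551 CPM in untreated libraries. The groups did not overlap, with SDs of 126 CPM in APX2009 cells and 11.2 CPM in untreated cells and a log2 change of -0.59 ± 0.09 (edgeR adjusted p = 0.000726). Its 2 well-known splice forms share 1 row of gene counts and were not separated here. HK2 (ENSG00000159399, chromosome 2, 74833981 to 74893359), which traps glucose as its phosphate, had 236, 279 and 278 CPM in APX2009 libraries and 374, 379 and 373 CPM in untreated libraries. Again no value overlapped, with a log2 change of -0.51 ± 0.08 (1.42-fold lower, edgeR adjusted p = 0.000752).

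The rises in glycolysis were smaller, apart from a gene at low level. ENO2 (ENSG00000111674, chromosome 12, 6913745 to 6923698), the neuronal form of enolase, had 30.9, 32.0 and 27.7 CPM in APX2009 libraries and 23.4, 19.3 and 17.6 CPM in untreated libraries. The groups did not overlap, and the log2 change was 0.59 ± 0.11 (1.5-fold, edgeR adjusted p = 0.00225). PFKP (chromosome 10, 3066333 to 3137712), the platelet-type phosphofructokinase subunit, had 571, 655 and 692 CPM against 543, 535 and 521 CPM in untreated libraries. The lowest treated value, that of replicate 1, lay close above the highest untreated one, with a log2 change of 0.26 ± 0.08 (edgeR adjusted p = 0.0289). PFKM (chromosome 12, 48105139 to 48146404), the muscle-type subunit, had 75.8, 87.8 and 90.6 CPM against 68.6, 71.9 and 69.1 CPM in untreated libraries (log2 change 0.28 ± 0.08, edgeR adjusted p = 0.0175). PGM1 (chromosome 1, 63593276 to 63660245), which links glycogen to glycolysis, had 101, 108 and 102 CPM against 88.8, 92.2 and 92.1 CPM in untreated libraries (log2 change 0.18 ± 0.06, edgeR adjusted p = 0.0363). All treated values of these 3 genes lay above all untreated ones. Their calls were close to the threshold: leaving out 1 library other than APX2009 replicate 1 ended that of PFKP in 5 of 5 cases (edgeR adjusted p from 0.0578 without untreated replicate 1 to 0.115 without untreated replicate 3). It ended that of PGM1 without APX2009 replicate 2 or any untreated replicate (0.0823 to 0.106) and that of PFKM without APX2009 replicate 3, untreated replicate 1 or untreated replicate 3 (0.0524 to 0.0654). PGM1 was also lost with DESeq2 (adjusted p = 0.0552) and with no filter on low counts (0.119). PFKM exons overlap SENP1 on the opposite strand, and SENP1 had a log2 change of -0.01. Whether reads of the pair were told apart depends on the strand setting of the counts, which is not given in the sources used here.

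**Figure D2:**
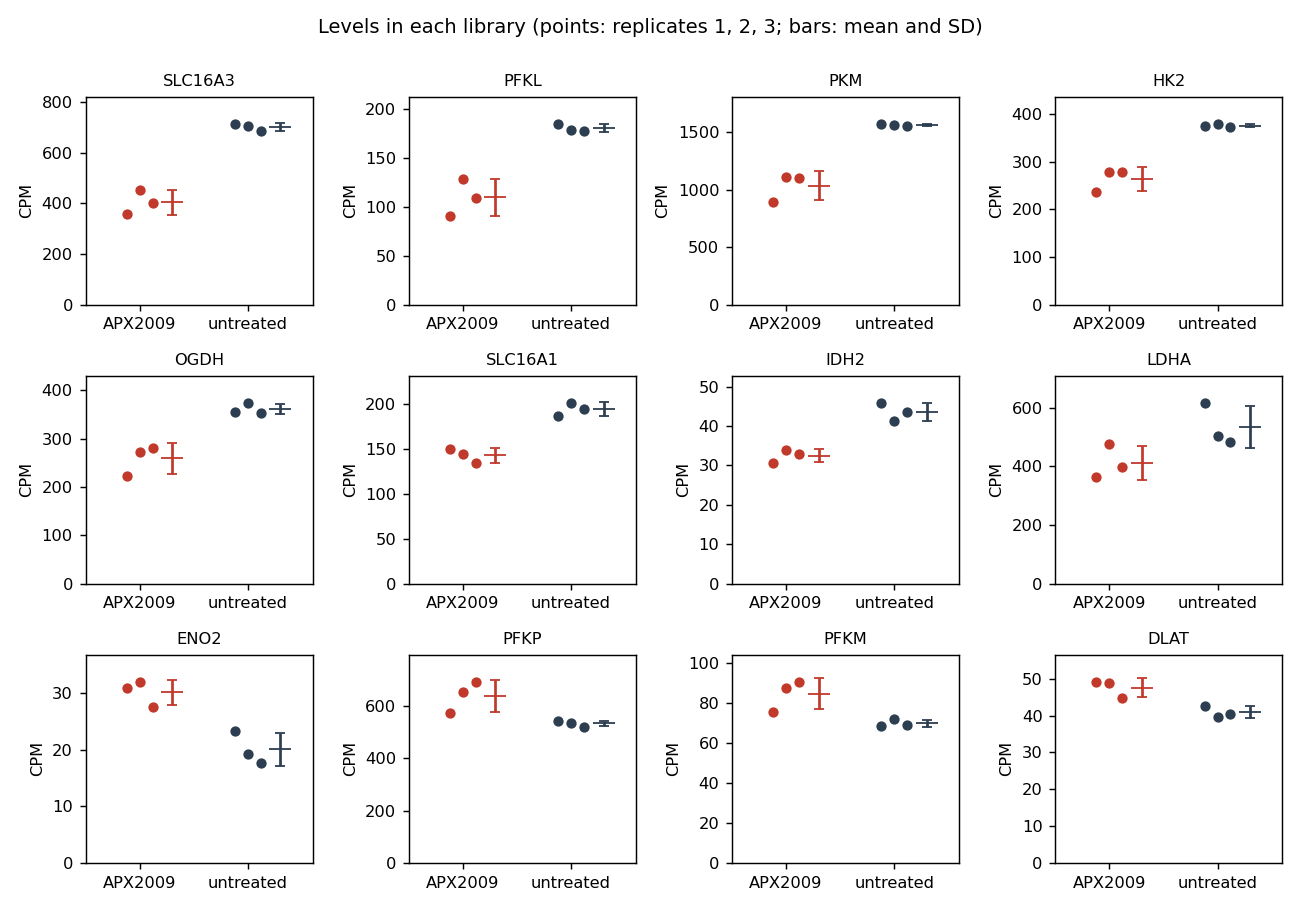
CPM of 12 genes in each library, APX2009 on the left of each panel and untreated on the right; points are replicates 1 to 3 and bars the mean and SD of 3 libraries, on axes that start at 0. The 8 genes in the upper rows are lower in APX2009 cells and the 4 in the last row higher, with no overlap between groups in any panel.

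The remaining 9 glycolysis genes did not pass. They include the most abundant transcripts. GAPDH, which makes NADH at the triose step, averaged 3118 ± 309 CPM in APX2009 cells and 3156 ± 34.9 CPM in untreated cells, with a log2 change of -0.02 ± 0.08 (edgeR adjusted p = 0.883). Its treated values of 2766, 3344 and 3242 CPM enclosed the untreated ones. ALDOA, the aldolase of most tissues, averaged 1715 ± 236 and 1549 ± 145 CPM (log2 change 0.15 ± 0.11), and ENO1, the common enolase, 1174 ± 151 and 1264 ± 1.12 CPM (-0.11 ± 0.09). PGK1, TPI1, HK1 and ALDOC had log2 changes from -0.04 to 0.02. GPI, which interconverts the sugar phosphates before phosphofructokinase, had 193, 270 and 261 CPM in APX2009 libraries and 246, 222 and 214 CPM in untreated libraries. It passed without APX2009 replicate 1 (log2 change 0.22, edgeR adjusted p = 0.0126), as did ALDOA (0.25, adjusted p = 0.00959). PGAM1, phosphoglycerate mutase, had 107, 150 and 147 CPM against 176, 165 and 160 CPM. Its groups did not overlap, yet it missed the threshold (log2 change -0.31 ± 0.11, edgeR adjusted p = 0.0583) and passed without APX2009 replicate 1 (-0.17, adjusted p = 0.0226), 2 (0.0375) or 3 (0.0479), with DESeq2 (0.0163), with no filter (0.000673) and with the GC and length offset (0.0289).

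Shares of isoenzymes were taken among the 39 genes. Levels between genes are compared here only per length, as CPM per kilobase of the principal transcript in GENCODE 29. PFKL made up 11.6%, 13.9% and 11.5% of the phosphofructokinase total in APX2009 libraries and 21.9%, 21.4% and 21.8% in untreated libraries. PFKP made up 79.7%, 77.5% and 79.9% against 70.7%, 70.7% and 70.5%. PFKM made up 8.63% ± 0.072 in APX2009 cells and 7.63% ± 0.244 in untreated cells. The share of the liver-type subunit was thus lower, and those of the platelet-type and muscle-type subunits higher, in each treated library. The summed level of the 3 subunits was 270.0, 318 and 326 CPM per kilobase in APX2009 libraries and 289, 285 and 278 in untreated libraries, and these values overlapped. HK2 averaged 57.7% ± 0.821 of the summed HK1 and HK2 levels in APX2009 cells and 66.2% ± 0.0213 in untreated cells. HK1 itself averaged 120.9 ± 8.31 and 119.6 ± 1.17 CPM and did not pass. HKDC1, a further hexokinase outside the 39 genes, rose and had 64.4 ± 4.53 CPM per kilobase in APX2009 cells and 51.6 ± 0.971 in untreated cells. With it in the total, HK2 made up 31.8% ± 1.94 and 43.4% ± 0.39. ENO2 took 2.12% ± 0.357 of enolase in APX2009 cells and 1.3% ± 0.188 in untreated cells, so ENO1 made up nearly all of it in both groups. ALDOC took 1.49% ± 0.0729 of aldolase against 1.69% ± 0.076. SLC16A1 took 28.2% ± 3.04 of the summed monocarboxylate transporter levels against 23.4% ± 0.916, with SLC16A3 making up the rest. LDHA averaged 35.8% ± 3.08 of the lactate dehydrogenase total against 40.7% ± 3.96, and these values overlapped. In an exact two-sided permutation test of 8 shares, 7 reached p = 0.1, which is the smallest that 3 against 3 libraries allow (adjusted p = 0.114), and LDHA had p = 0.3. None could therefore pass 0.05.

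**Figure D3:**
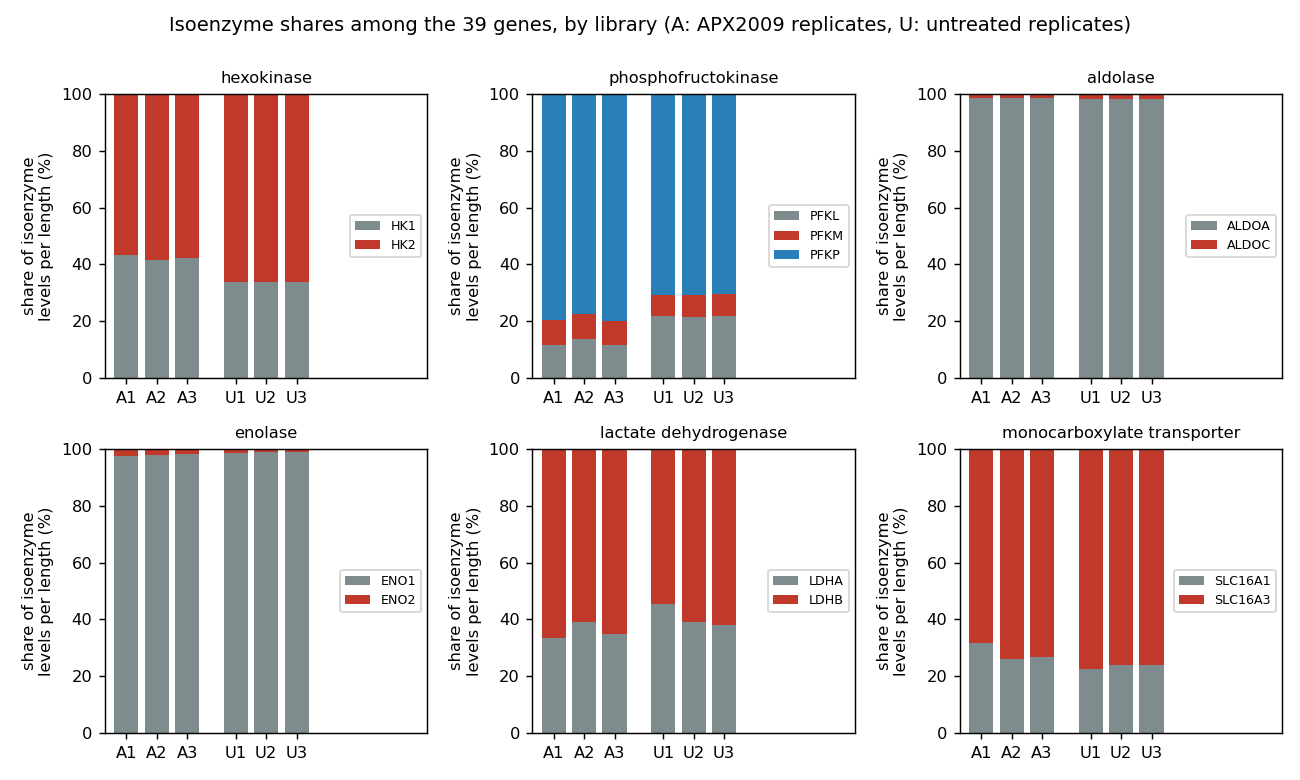
Share of each isoenzyme in the summed level per length of those of its kind among the 39 genes (%; HKDC1 and ENO3 are not included), as stacked bars for the 3 APX2009 libraries (A1 to A3) and the 3 untreated libraries (U1 to U3). PFKL averages 12.3% in APX2009 libraries and 21.7% in untreated libraries, and HK2 57.7% and 66.2%.

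Of the 11 pyruvate handling genes, SLC16A3, SLC16A1 and LDHA fell, DLAT rose and 7 did not pass. SLC16A3 (ENSG00000141526, chromosome 17, 82228397 to 82261129), which codes for the lactate exporter MCT4, had 357, 453 and 403 CPM in APX2009 libraries and 715, 706 and 685 CPM in untreated libraries. Its log2 change of -0.80 ± 0.09 was the lowest of the 39 (1.74-fold lower, edgeR adjusted p = 0.000106), and the groups were far from overlapping. Its exons share 482 bases with CSNK1D on the opposite strand, which had a log2 change of -0.20. Whether reads there could be assigned depends on the strand setting, which is not given in the sources used here. SLC16A1 (ENSG00000155380, chromosome 1, 112911847 to 112957013), coding for the lactate and pyruvate carrier MCT1, had 150.2, 145 and 134 CPM against 186, 201 and 195 CPM in untreated libraries. All treated values were lower, with a log2 change of -0.44 ± 0.07 (1.36-fold lower, edgeR adjusted p = 0.000756). LDHA (ENSG00000134333, chromosome 11, 18394388 to 18408425), the lactate dehydrogenase subunit that favours lactate formation, had 363, 477 and 398 CPM against 617, 502 and 483 CPM. The highest treated value was just under the lowest untreated one, with a log2 change of -0.37 ± 0.12 (edgeR adjusted p = 0.0334). The call was lost without APX2009 replicate 3, untreated replicate 1 or untreated replicate 2 (edgeR adjusted p = 0.0892, 0.122 and 0.0565). LDHB, the subunit that favours pyruvate formation, averaged 469 ± 4.46 CPM in APX2009 cells and 492 ± 15.4 CPM in untreated cells (log2 change -0.07 ± 0.06).

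Of the pyruvate dehydrogenase complex, only the gene of the acetyltransferase core passed. DLAT (chromosome 11, 112024814 to 112064390) had 49.1, 48.9 and 44.8 CPM in APX2009 libraries and 42.7, 39.6 and 40.3 CPM in untreated libraries. The groups did not overlap and the log2 change was 0.22 ± 0.07 (edgeR adjusted p = 0.0285). The call ended without APX2009 replicate 2, untreated replicate 2 or untreated replicate 3 (adjusted p = 0.0785, 0.111 and 0.114), with DESeq2 (0.0502), with no filter (0.0527) and with an offset for GC content and length (0.0549). PDHA1 and PDHB, the subunits of the decarboxylating component, had log2 changes of 0.02 ± 0.06 and -0.15 ± 0.09, and DLD, the dehydrogenase shared with the oxoglutarate complex, 0.09 ± 0.06. DLD shares 70 exon bases with LAMB1 on the opposite strand, whose mean CPM was 267% of that of DLD and which fell. MPC1 and MPC2, the mitochondrial pyruvate carrier, averaged 18.1 ± 1.83 and 17.1 ± 0.157 CPM in APX2009 cells and 19.3 ± 0.789 and 18.5 ± 1.14 CPM in untreated cells, and neither passed. MPC2 shares 575 exon bases with DCAF6 on the opposite strand, whose mean CPM was 211% of that of MPC2 and which rose (log2 change 0.24). PC, pyruvate carboxylase, which refills the cycle with oxaloacetate, had 18.5, 23.6 and 24.2 CPM against 20.3, 19.7 and 17.8 CPM. Replicate 1 lay inside the untreated range and the others above it, and PC passed without replicate 1 (log2 change 0.31, edgeR adjusted p = 0.0105), although its exons overlap those of LRFN4 on the opposite strand.

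In the TCA cycle OGDH, IDH2 and FH fell and SDHB rose. OGDH (ENSG00000105953, chromosome 7, 44606572 to 44709066), the rate-setting component of the oxoglutarate dehydrogenase complex, had 223, 273 and 281 CPM in APX2009 libraries and 355, 374 and 354 CPM in untreated libraries. No values overlapped, and the log2 change was -0.48 ± 0.09 (1.39-fold lower, edgeR adjusted p = 0.00235). DLST, the next component of the same complex, averaged 73.0 ± 3.75 and 78.3 ± 5.03 CPM and did not pass (log2 change -0.10 ± 0.07). IDH2 (ENSG00000182054, chromosome 15, 90083045 to 90102504), the mitochondrial isocitrate dehydrogenase that makes NADPH, had 30.7, 33.9 and 32.9 CPM against 45.9, 41.2 and 43.6 CPM. All treated values were lower, with a log2 change of -0.42 ± 0.07 (edgeR adjusted p = 0.0014). IDH3A and IDH3B, of the isocitrate dehydrogenase that makes NADH, had log2 changes of -0.18 ± 0.08 and 0.14 ± 0.07 and did not pass. FH (chromosome 1, 241497603 to 241519761), fumarase, had 52.9, 58.5 and 60.7 CPM against 68.6, 68.8 and 72.3 CPM in untreated libraries (log2 change -0.29 ± 0.07, edgeR adjusted p = 0.00941; 0.0511 without untreated replicate 3).

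SDHB (chromosome 1, 17018722 to 17054170), the iron-sulphur subunit of succinate dehydrogenase, had 35.4, 39.3 and 40.0 CPM in APX2009 libraries and 32.2, 31.0 and 34.4 CPM in untreated libraries. Replicate 1 lay less than 1 CPM above the highest untreated value, and the log2 change of 0.23 ± 0.08 passed narrowly (edgeR adjusted p = 0.0385). Leaving out any library but APX2009 replicate 1 ended the call (adjusted p from 0.0551 without untreated replicate 3 to 0.13 without untreated replicate 2), as did DESeq2 (0.0608), no filter (0.0556) and the GC and length offset (0.0682). SDHA, the flavoprotein subunit, averaged 151 ± 6.86 and 144 ± 1.55 CPM and did not pass. CS, citrate synthase, which starts the cycle, had 149, 172 and 167 CPM against 176, 191 and 185 CPM. Its groups did not overlap, but it missed the threshold (log2 change -0.18 ± 0.07, edgeR adjusted p = 0.0843). SUCLG1, a subunit of succinyl-CoA ligase, had 45.1, 35.5 and 34.8 CPM against 41.3, 44.3 and 42.8 CPM, with replicate 1 above every untreated library and the others below, and it fell without replicate 1 (log2 change -0.29, edgeR adjusted p = 0.00413). The malate dehydrogenases MDH1, of the cytosol, and MDH2, of mitochondria, had log2 changes of -0.04 ± 0.07 and -0.10 ± 0.07.

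As class means of log2 CPM against the untreated mean, glycolysis stood at -0.24, 0.06 and 0.01 in APX2009 replicates 1, 2 and 3 and at 0.06, -0.01 and -0.05 in untreated replicates 1, 2 and 3. Only replicate 1 lay outside the untreated range on the low side, and replicate 2 was just above it. Pyruvate handling stood at -0.18, -0.09 and -0.14 in APX2009 libraries and 0.05, -0.02 and -0.03 in untreated libraries. The TCA cycle stood at -0.19, -0.10 and -0.09 in APX2009 libraries and -0.02, 0.00 and 0.02 in untreated libraries. In these last classes all treated libraries lay below all untreated ones. The means do not stand for every gene. In pyruvate handling SLC16A3 (-0.80), SLC16A1 (-0.44) and LDHA (-0.37) had the lowest log2 changes, and PDHB came next at -0.15. Gene by gene, all treated values lay below all untreated ones for 5 of 11 pyruvate handling and 5 of 12 TCA cycle genes, against 25% of all genes.

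**Figure D4:**
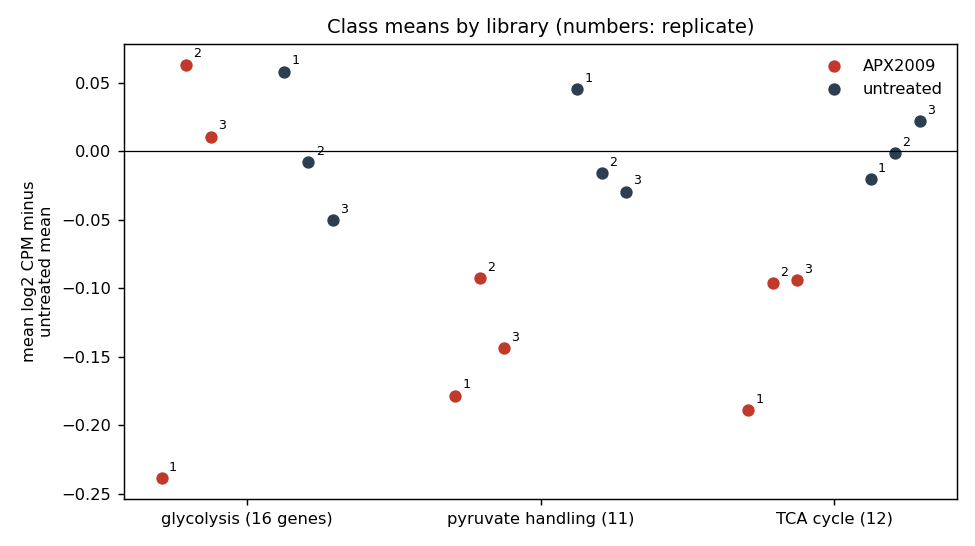
Mean log2 CPM of the genes of each class minus the untreated mean, 1 point per library with its replicate number, APX2009 left and untreated right. In glycolysis APX2009 replicate 1 is at -0.24 and replicates 2 and 3 at 0.06 and 0.01; in the TCA cycle the 3 treated points lie between -0.19 and -0.09.

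Per length, GAPDH led in both groups, with 1663 CPM per kilobase in APX2009 cells and 1683 in untreated cells, followed by ALDOA with 1070 and 966. In untreated cells PKM came next at 575, ahead of ENO1 at 539, whereas in APX2009 cells ENO1 at 501 stood above PKM at 382. These levels of PKM and ENO1 had SDs of 46.4 and 64.3 in APX2009 cells and 4.13 and 0.477 in untreated cells. At the low end PC had 5.28 and 4.59, MPC2 7.87 and 8.49, and ENO2 10.7 and 7.11. TCA cycle genes ran from 8.89 (IDH3A) to 138 (MDH2) in APX2009 cells and from 10.1 (IDH3A) to 148 (MDH2) in untreated cells.

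Other genes of the pathways were read from 3 lists. Of 27 listed genes of glucose transport and glycolysis, 18 were tested, 3 rose and 3 fell, with a median log2 change of -0.04. SLC2A12, a glucose transporter, rose 2.73-fold to 27.6 ± 1.67 CPM in APX2009 cells, against 10.1 ± 1.18 CPM in untreated cells (edgeR adjusted p = 5.77e-06). BPGM, which makes bisphosphoglycerate, rose 1.53-fold and the hexokinase-domain gene HKDC1 1.25-fold. PGM2, SLC2A8 and BSG, the last of which codes for the partner protein that carries MCT1 and MCT4 to the membrane, had log2 changes of -0.38, -0.52 and -0.27 and fell. SLC2A1, the main glucose transporter gene of most tumour cells, had 347, 425 and 413 CPM against 477, 441 and 428 CPM and did not pass (log2 change -0.18 ± 0.09, edgeR adjusted p = 0.13). PFKFB3, which makes the activator of phosphofructokinase, did not pass either (-0.24 ± 0.10, adjusted p = 0.0906).

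The list of pyruvate dehydrogenase regulators and pyruvate exits held the sharpest changes. Of 16 listed genes 14 were tested, 4 rose and 3 fell, with a median of -0.04. PDK4, a kinase that switches off pyruvate dehydrogenase, had 33.1, 28.8 and 29.4 CPM in APX2009 libraries and 8.85, 10.7 and 9.48 CPM in untreated libraries. It rose 3.14-fold with no overlap (log2 change 1.65 ± 0.10, edgeR adjusted p = 2.08e-06). PDK2, of the same family, rose 1.25-fold, while PDK1 and PDK3 had log2 changes of -0.18 and -0.15 and did not pass. The opposing phosphatases split, PDP2 with a log2 change of 0.37 and PDP1 with -0.24, both past the threshold. ME1, the cytosolic malic enzyme that makes NADPH and pyruvate, rose 2.68-fold. PCK2, the mitochondrial enzyme that turns oxaloacetate into phosphoenolpyruvate, fell to 84.8 ± 10.1 CPM in APX2009 cells, against 194 ± 3.38 CPM in untreated cells, and GPT2, which exchanges pyruvate and alanine, to 193 ± 18.6 CPM, against 313 ± 6.05 CPM.

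All 23 listed genes around the TCA cycle were tested, 2 rose and 5 fell, with a median of -0.14. IDH1, the cytosolic NADPH-making isocitrate dehydrogenase, averaged 288 ± 4.39 CPM in APX2009 cells and 185 ± 4.64 CPM in untreated cells and rose (log2 change 0.64 ± 0.06, edgeR adjusted p = 3.82e-05), opposite to its mitochondrial counterpart IDH2. SDHD, a membrane anchor of succinate dehydrogenase, rose with SDHB (0.42 ± 0.07), whereas SDHC, the other anchor, had a log2 change of 0.00 ± 0.08. SUCLG2, the GTP-specific partner of SUCLG1, fell (-0.65 ± 0.07), and its ATP-specific counterpart SUCLA2 did not pass (-0.20 ± 0.09). SLC25A10, the dicarboxylate carrier, GLUD1, which feeds glutamate into the cycle, and ACLY, which splits exported citrate, fell with log2 changes of -0.62, -0.40 and -0.26. In these 3 lists 33.3%, 50% and 30.4% of the tested genes passed, against 34.7% of all genes. Leaving out APX2009 replicate 1 kept all 20 of these calls, and it kept 4746 of the 5119 calls over all genes. Omissions of the other libraries are not given for these lists.

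**Figure D5:**
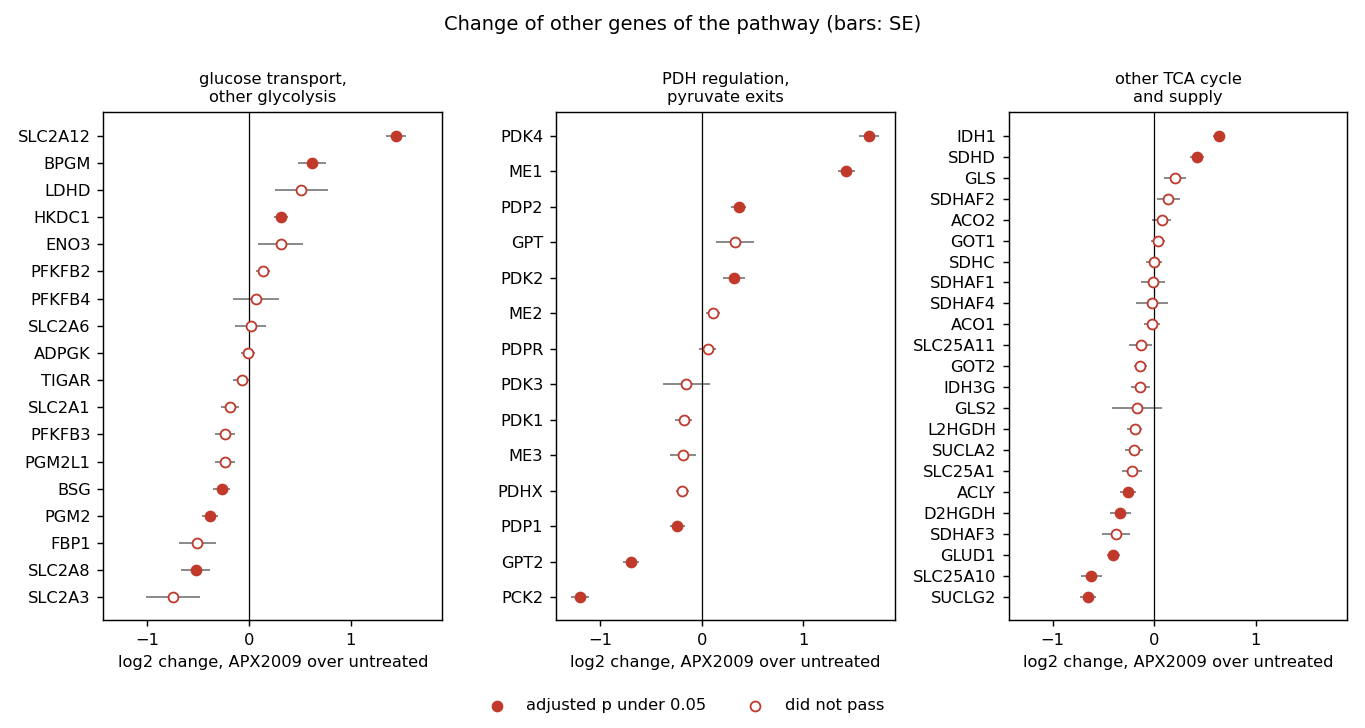
Log2 change (APX2009 over untreated) of the tested genes of the 3 further lists, with SE bars; filled points passed at an adjusted p under 0.05. PDK4 (1.65), SLC2A12 (1.45) and ME1 (1.42) lie highest and PCK2 (-1.20) lowest.

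Several of these genes have near-identical copies. GENCODE 29 lists 108 pseudogenes named after 15 of the 39 genes, 62 of them of GAPDH, and 53 had at least 1 count. Their summed level was 29.7, 25.5 and 25.8 CPM in APX2009 libraries and 22.1, 19.6 and 23.0 CPM in untreated libraries, 0.191% to 0.355% of the summed level of their parent genes. The highest were SDHAP1, with 16.7 CPM in APX2009 cells and 12.4 CPM in untreated cells, PGAM1P8 and GAPDHP1. SDHA is the parent with most reads in copies, at 11.1% to 13.7% of its own level in APX2009 libraries and 8.26% to 10.2% in untreated libraries. Adding the copies to their parents changed none of the 39 calls. The sums were small beside the parents, so this cannot show how reads that match both a parent and a copy were counted.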

How the data were processed

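Polyadenylated RNA of 6 OE33 libraries was sequenced. The values are whole-number read counts per Ensembl gene and per ERCC transcript, deposited by the authors without normalization. Per the submitters' processing notes, Trimmomatic 0.36, STAR 2.5.2b and featureCounts of Subread 1.5.2 were used with GRCh38. The sources used here do not state the annotation release, strand setting or filters. GENCODE 29 gave names to 57447 of 58051 gene rows, and ERCC rows stayed out of library sizes except where used for scaling. Counts were tested with edgeR 4.0.16 in R 4.3.3 (filterByExpr, TMM, glmQLFTest, treatment as the only term) and tried on simulated data first. The SE is the log2 change divided by the square root of F. DESeq2 1.42.0, limma 3.58.1, other scalings and filters, a replicate block and the omission of each library were alternatives. All 39 genes are named, with values in every library for those that passed. The genes and lists were chosen with earlier results of these data known. Counts carry no molecular identifiers, so repeated reads of the same molecule cannot be told apart. Between libraries of the same group the chi-square per degree of freedom was 3.25 to 33.8, so they differed by more than counting error. APX2009 replicate 1 gave 30.1 and 33.8 against replicates 2 and 3, which gave 5.32 between them. Untreated replicate 1 also stood off, with 20.8 and 11.9 against untreated replicates 2 and 3, which gave 3.25 between them. Pairing was not assumed.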

Additional observations from a re-analysis of the deposited data

How the results depend on the processing

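HK2, PFKL, PKM, SLC16A1, SLC16A3, IDH2, OGDH (lower) and ENO2 (higher) passed in all 15 alternatives not scaled to ERCC, and RLE factors, total counts, a 1 CPM filter, voom and summed pseudogenes changed no call among the 39 genes. With ERCC scaling of 6 libraries, genes higher and lower numbered 0 and 0 in all and in each class (edgeR, 0 at an unadjusted p under 0.05; DESeq2 with its own factors called 3 higher) and 129 and 7 over all genes. The 15 called genes kept their sign, with log2 changes of 0.24 to 0.67 and -0.78 to -0.25, while GAPDH (0.000800), PGK1 (0.00529), MPC1 (0.0306) and MDH1 (0.0226) changed sign. With that scaling and without APX2009 replicate 1, an alternative chosen after seeing the data, 0 rose and 31 fell (edgeR, 0 rises at an unadjusted p under 0.05), with 0 and 10 in glycolysis, 0 and 10 in pyruvate handling, 0 and 11 in the TCA cycle, and 459 and 9230 over all genes. Log2 changes that turned negative there were HK1 -0.42, GPI -0.27, PFKM -0.14, PFKP -0.16, ALDOA -0.24, PGM1 -0.29, PC -0.18, PDHA1 -0.46, DLAT -0.29, DLD -0.43, IDH3B -0.31, SDHA -0.39 and SDHB -0.20. No filter and DESeq2 each left 3 genes higher in all, 0 in pyruvate handling and 0 in the TCA cycle (1 each at an unadjusted p under 0.05). The GC and length offset, also added later, gave 5 lower TCA genes and turned ALDOC (0.0113), GAPDH (0.0561) and PDHA1 (-0.0342). At an adjusted p under 0.01, 1 gene was higher, in glycolysis, 0 in pyruvate handling and 0 in the TCA cycle (edgeR, 1 each at an unadjusted p under 0.05), and 1470 and 1587 of all genes were higher and lower. Leaving out 1 library gave 1 to 10 genes higher and 8 to 11 lower, with 1 to 6 and 3 to 4 in glycolysis, 0 to 2 and 2 to 3 in pyruvate handling, 0 to 2 and 2 to 4 in the TCA cycle, and 1708 to 2839 and 1795 to 2870 over all genes. Log2 changes then crossed zero for ALDOC (-0.156 to 0.0880), GAPDH (-0.0645 to 0.0592), HK1 (-0.0262 to 0.0677), MDH1 (-0.0795 to 0.000945), PGK1 (-0.0651 to 0.0550) and TPI1 (-0.114 to 0.0494). With a replicate block 5 genes rose and 10 fell, 2757 and 2744 over all genes; PGM1 was lost (edgeR adjusted p = 0.0591) and PGAM1 gained (0.0198). Deviations of same-numbered libraries correlated at 0.157, 0.0955 and 0.0417, against -0.154 to 0.132 for other pairs, so the numbers were not taken to pair the libraries. The cause of these shifts was not tested.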

Other observations

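Against the mean of APX2009 replicates 2 and 3, replicate 1 was lower for 33 of the 39 genes, with a median log2 deviation of -0.17 and a range from -0.47 to 0.35, while the median over all genes was -0.01. Those lower were 15 of 16 glycolysis genes, 7 of 11 pyruvate handling genes and 11 of 12 TCA cycle genes. Such counts were not particular to it. Untreated replicate 3 lay below the mean of the other untreated libraries for 27 of the 39 genes. These were 15 glycolysis, 7 pyruvate handling and 5 TCA cycle genes, at a smaller median deviation of -0.02. Over 14721 genes the deviation of APX2009 replicate 1 had a Pearson r of -0.31 with the GC content of the gene, and over the 39 genes -0.60. For APX2009 replicates 2 and 3, whose reference includes replicate 1, r was 0.17 and 0.28, and over the 39 genes 0.53 and 0.43. For the untreated libraries r ran from -0.12 to 0.12, and over the 39 genes from -0.31 to 0.21. These are correlations across genes, which are not independent replicates and share the same libraries. Of the 39 genes, 13 share exon bases with another tested gene, 12 of them on the opposite strand, among them SLC16A1 with SLC16A1-AS1 (175 bases, log2 change of the antisense gene 0.58).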
